A study of Rattus norvegicus with 16 samples.

Results

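Gene expression in the rat initial segment was compared between 18 h and 12 h after efferent duct ligation, using the 4 arrays labelled 18 h and the 4 labelled 12 h out of 16 arrays in the study. The members of the comparison are all 31042 probe sets of the array other than its control probe sets, of 31099 in the table. Both groups came from adult male Sprague-Dawley rats of 275 to 450 g with the efferent ducts tied on 1 side. Each animal's opposite side had a sham operation, and no sham array enters this comparison. The tissue was the most proximal piece of the initial segment (zones 1a and 1b), taken 12 or 18 h after surgery. The labels call the 4 replicates of a group biological, but do not say at what hour of the day tissue was taken or which animals share a number. A value is the level of a probe set on a log2 scale, so that a difference of 1 is a doubling. A level under 5 was not told apart from background here, so the size of a difference from such a level is uncertain.

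The initial segment is the first part of the epididymal duct, a tall and strongly vascularised epithelium through which sperm enter from the testis. Its principal cells depend on testicular fluid: factors in it act on the luminal surface (lumicrine regulation) and keep ERK signalling and the expression of segment-specific genes high. When the fluid is cut off the epithelium loses this signal and some of its cells die by apoptosis within the first day. By its title the study is about ERK, STAT and NFKB signalling and how cell death is prevented, and this comparison asks what still differed between the later pair of times.

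With limma, 0 of 12982 tested probe sets differed between 18 h and 12 h at an adjusted p under 0.05 (0.0%), and the lowest adjusted p was 0.744. At an unadjusted p under 0.05 there were 554 probe sets (4.27%), 270 higher (2.08%) and 284 lower (2.19%) at 18 h. With the replicate number as a block the counts were 0 called and 1073 unadjusted (8.27%), and with replicates 1 and 2 against replicates 3 and 4 as a block they were 0 and 1153 (8.88%). The median absolute difference was 0.13 and the median SE 0.18, and the 5th and 95th percentiles of the differences were -0.42 and 0.43. The 95% interval of the difference lay wholly inside a doubling or a halving for 10669 probe sets (82.2%) and for 7020 of 8179 genes (85.8%), so for the remaining genes a larger change is not bounded by these arrays. Single genes described below are therefore given as values and none is called changed. Because the tissue was measured in bulk, fewer cells of a type and less RNA per cell cannot be told apart.

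The arrays divided along the replicate numbers. Between replicates 3 and 4 and replicates 1 and 2, limma called 2188 probe sets (16.9%), 882 higher (6.79%) and 1306 lower (10.1%). The median of that difference was -1.46 for fibroblast markers (13 of 14 called lower) and -1.15 for macrophage markers (8 of 14 called lower). For this reason many differences are also given within replicates 1 and 2 and within replicates 3 and 4, in that order. Where only 1 value is given, the pairs may differ. The 3' minus 5' level of Gapdh, a sign of RNA integrity, was 0.191 to 0.293 in replicates 3 and 4 and 0.003 to 0.052 in replicates 1 and 2, at both times. The same measure of actin differed by time within replicates 3 and 4, with 1.194 and 1.299 at 12 h and 1.494 and 1.559 at 18 h, and within replicates 1 and 2 it was 1.429 and 1.461 and then 1.449 and 1.257. Its part in the differences was not tested. Epithelial markers, all 14 tested, had a mean level of 10.29 to 10.43 on the 12 h arrays and 10.37 to 10.55 on the 18 h arrays. Fibroblast markers ranged from 9.0 to 10.73 at 12 h and from 8.87 to 10.67 at 18 h, and macrophage markers from 5.80 to 8.05 and from 6.80 to 7.82. All 6 neutrophil, 4 B cell and 6 mast cell markers on the array were under the minimum level. So were 10 of 13 T cell markers, Cd3e, Cd3d and Cd3g among them, while the other 3 were tested.

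Replicates 1 and 2 of 12 h also stood apart from the other 6 arrays. On both of them 22 probe sets lay more than 2 log2 units below all 6 other arrays and 1 more than 2 above them, while each of the other 3 pairs of arrays (12 h replicates 3 and 4, 18 h replicates 1 and 2, 18 h replicates 3 and 4) had 0 and 0. These 12 h arrays were also the most alike of the 4 pairs, with a correlation of 0.986 over tested probe sets against 0.965 to 0.973. Their values were not identical, and they are counted as 2 replicates. Without both of them limma still called 0 probe sets (lowest adjusted p 0.695, with 931 at an unadjusted p under 0.05), but that fit sets 4 arrays of 18 h against only replicates 3 and 4 of 12 h. In that unbalanced fit 309 of all 8179 genes were higher at 18 h at an unadjusted p under 0.05. The macrophage markers were higher there in 14 of 14 cases (median 0.99, 4 at such a p) and the fibroblast markers in 14 of 14 (median 0.54, 1 at such a p). Their part in the list values given below without these arrays was not tested. Values within replicates 3 and 4 do not use them.

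Promoter sequences are shown for 3 genes that differed in the same direction in both pairs of replicates, Tap1 as a gene of antigen presentation and Msmo1 and Idi1 as genes of sterol synthesis. Each line gives the 250 bases before the gene's start in the RefSeq annotation of GRCr8, 5′ to 3′ on the gene's strand. Capitals in Tap1 mark matches to a core of the interferon-stimulated response element (ISRE; TTTC, any 2 bases, then TTTC) and to an NFKB site (GGG, any 2 bases, then TTTCC), and capitals in the other genes mark CCAAT (read ATTGG on the other strand), the site of NF-Y, a factor that works beside SREBP at sterol genes.
Tap1, chr20:4668544-4668793, minus strand: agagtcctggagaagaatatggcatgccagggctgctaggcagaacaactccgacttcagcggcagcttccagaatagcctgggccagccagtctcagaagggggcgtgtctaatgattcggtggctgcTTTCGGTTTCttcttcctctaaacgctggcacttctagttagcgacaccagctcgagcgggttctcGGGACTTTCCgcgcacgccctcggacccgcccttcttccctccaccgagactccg
Msmo1, chr16:29746863-29747112, plus strand: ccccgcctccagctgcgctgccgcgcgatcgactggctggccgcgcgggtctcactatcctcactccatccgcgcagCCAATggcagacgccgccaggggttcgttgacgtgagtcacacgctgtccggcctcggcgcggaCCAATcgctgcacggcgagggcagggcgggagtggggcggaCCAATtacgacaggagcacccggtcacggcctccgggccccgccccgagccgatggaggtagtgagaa
Idi1, chr17:66547525-66547774, minus strand: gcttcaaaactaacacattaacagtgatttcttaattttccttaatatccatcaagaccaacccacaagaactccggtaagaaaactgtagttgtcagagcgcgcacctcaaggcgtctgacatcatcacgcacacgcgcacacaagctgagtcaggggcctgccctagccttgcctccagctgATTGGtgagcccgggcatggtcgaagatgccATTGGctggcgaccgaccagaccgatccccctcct

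Both strands were searched, and the motifs shown share no bases in these windows. In Tap1 the ISRE match lay 121 to 112 bases and the NFKB match 55 to 46 bases before the start. Over all 33469 promoter windows of this length, 3.41% held an ISRE match, 1.30% an NFKB match and 34% a CCAAT. Among tested members of the antigen presentation list with a window, 7 of 16 held an ISRE match (43.8%) and 4 of 16 an NFKB match (25%), and of the interferon response list 6 of 13 held an ISRE match (46.2%). Of the sterol synthesis list, 15 of 16 held a CCAAT (93.8%). A SREBP-type sterol element, TCACNCCAC, matched 0 of those 16 windows against 0.974% of all windows. A match describes these letters only.

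The 2 smallest unadjusted p-values of the comparison were those of Ifgga2l1 and Tap1. Ifgga2l1, which is in none of the lists and was picked after its values were seen, belongs to the interferon-inducible GTPases, which act against pathogens inside cells. Its level was 7.55, 7.56, 7.49 and 7.19 on the 12 h arrays and 8.89, 8.39, 8.41 and 8.44 on the 18 h arrays. All 4 arrays of 18 h lay above all 4 of 12 h, and the difference was 1.09 ± 0.15 (SE, n = 4 arrays each; limma adjusted p = 0.744, unadjusted 8.65e-05). It was nearly the same in the pairs, 1.09 and 1.08, and 0.97 to 1.19 over all settings tried. The window before its start holds 1 ISRE match, 136 to 127 bases upstream.

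Tap1 encodes a subunit of the transporter that carries peptides into the endoplasmic reticulum for loading on MHC class I. It stood at 6.00, 6.12, 6.62 and 6.31 at 12 h and at 7.54, 7.28, 7.22 and 7.30 at 18 h, a difference of 1.07 ± 0.15 (1.35 and 0.79; limma adjusted p = 0.744). The groups did not overlap. Psmb9, an immunoproteasome subunit gene, starts 456 bases away on the opposite strand. Its difference was 0.25 ± 0.13 (0.08 and 0.42), with overlapping groups. Tap2, the partner subunit, differed by 0.42 ± 0.26 (0.33 and 0.51).

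Of 17 tested antigen presentation genes, 14 were higher and 3 lower at 18 h, and 11 were higher in both pairs. An unadjusted p under 0.05 was reached by 1, higher at 18 h, against 2.24% of all genes in that direction. The list's median was 0.25 (0.28 and 0.23), against a median of 0.00 over all 8179 genes, of which 51.0% were higher and 23.8% higher in both pairs. B2m, the class I light chain, stood at 0.14 ± 0.12. Class II genes such as Cd74, the invariant chain, stood at 0.34 ± 0.29 and RT1-Bb at -0.76 ± 1.04. Beside this, the macrophage markers, cells rich in class II, had a median of 0.19 (-0.15 and 0.48), with 0 of 14 at an unadjusted p under 0.05. Their part in the class II values was not tested.

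In the interferon response list 16 of 19 genes were higher and 15 were higher in both pairs, with a median of 0.37 (0.41 and 0.25). An unadjusted p under 0.05 was reached by 5 of the 19, all higher, against 2.24% of all genes in that direction. Irf1, a transcription factor that interferon gamma induces, stood at 9.12, 8.90, 9.07 and 9.19 at 12 h and at 9.56, 9.72, 9.46 and 9.29 at 18 h. Its difference was 0.44 ± 0.12 (0.63 and 0.25; limma adjusted p = 1), and its groups did not overlap, as in 2 of the 19 genes against 0.966% of all genes with 18 h higher. Ifit2, which blocks translation of viral RNA, had 5.38, 5.05, 5.29 and 4.50 at 12 h and 6.80, 6.52, 5.64 and 5.46 at 18 h. It differed by 1.05 ± 0.34, again without overlap but with a larger distance in replicates 1 and 2 (1.44 and 0.66). The size of this difference is uncertain, as the 12 h level of 4.50 is under 5. Dtx3l and Parp9, whose products form an ADP-ribosylating complex, differed by 0.58 ± 0.16 and 0.95 ± 0.31. Ifi27 went the other way at -0.47 ± 0.25, and Isg15 stood at 0.37 ± 0.49. Without both of the 12 h arrays that stood apart, 16 of 19 were higher, with a median of 0.41, beside medians of 0.99 for macrophage and 0.54 for fibroblast markers.

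NFKB pathway genes leaned the same way, with 16 of 17 higher, 9 higher in both pairs and a median of 0.22 (0.32 and 0.19). Relb, which encodes the subunit of the non-canonical NFKB arm, had levels near background at 12 h, 4.66, 4.70, 4.73 and 4.62. At 18 h it had 6.00, 5.72, 6.32 and 5.10, all above the 12 h arrays. The difference was 1.11 ± 0.24 (1.18 and 1.03, limma adjusted p = 0.98), of uncertain size as the 12 h levels are under 5. The lowest of the 18 h arrays was replicate 4 (SD of the group 0.52). Birc3, an inhibitor of apoptosis that NFKB induces, had 4.77, 5.47, 4.90 and 5.28 and then 5.82, 6.20, 6.33 and 5.19. It differed by 0.78 ± 0.27 (0.89 and 0.68), and replicate 4 of 18 h overlapped the 12 h range. The size is uncertain, as the 12 h levels of 4.77 and 4.90 are under 5. Nfkb1 stood at 0.38 ± 0.14, while the inhibitor gene Nfkbia, a fast NFKB target, stood at 0.07 ± 0.12 (-0.11 and 0.25). Its 95% interval ran from -0.22 to 0.36. Icam1, the adhesion molecule, differed by 0.61 ± 0.34 with 1.14 in the first pair and 0.07 in the second.

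JAK-STAT genes were less even, with 13 of 18 higher, 10 in both pairs and a median of 0.12. Stat3 itself, 10.67, 10.85, 11.30 and 10.48 at 12 h, was at 12.05, 12.29, 11.73 and 10.70 at 18 h. Its difference of 0.87 ± 0.35 was 1.41 in the first pair and 0.33 in the second, and the lowest 18 h array fell inside the 12 h range. Of the acute phase and complement genes, 9 of 11 were above 0 but 0 were above 0 in both pairs. A2m and Lbp, liver-type acute phase genes, differed by 2.98 and 3.82 in replicates 1 and 2 and by -0.06 and -0.59 in replicates 3 and 4. Fgg, a fibrinogen chain, stood at 0.32 ± 0.55 (0.70 and -0.06). Ccl2, a monocyte chemokine, stood at 0.40 ± 1.03 (-0.25 and 1.05), with a 95% interval of -1.97 to 2.77. For Ccl2 these arrays bound neither a higher nor a lower level closely.

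**Figure D1:**
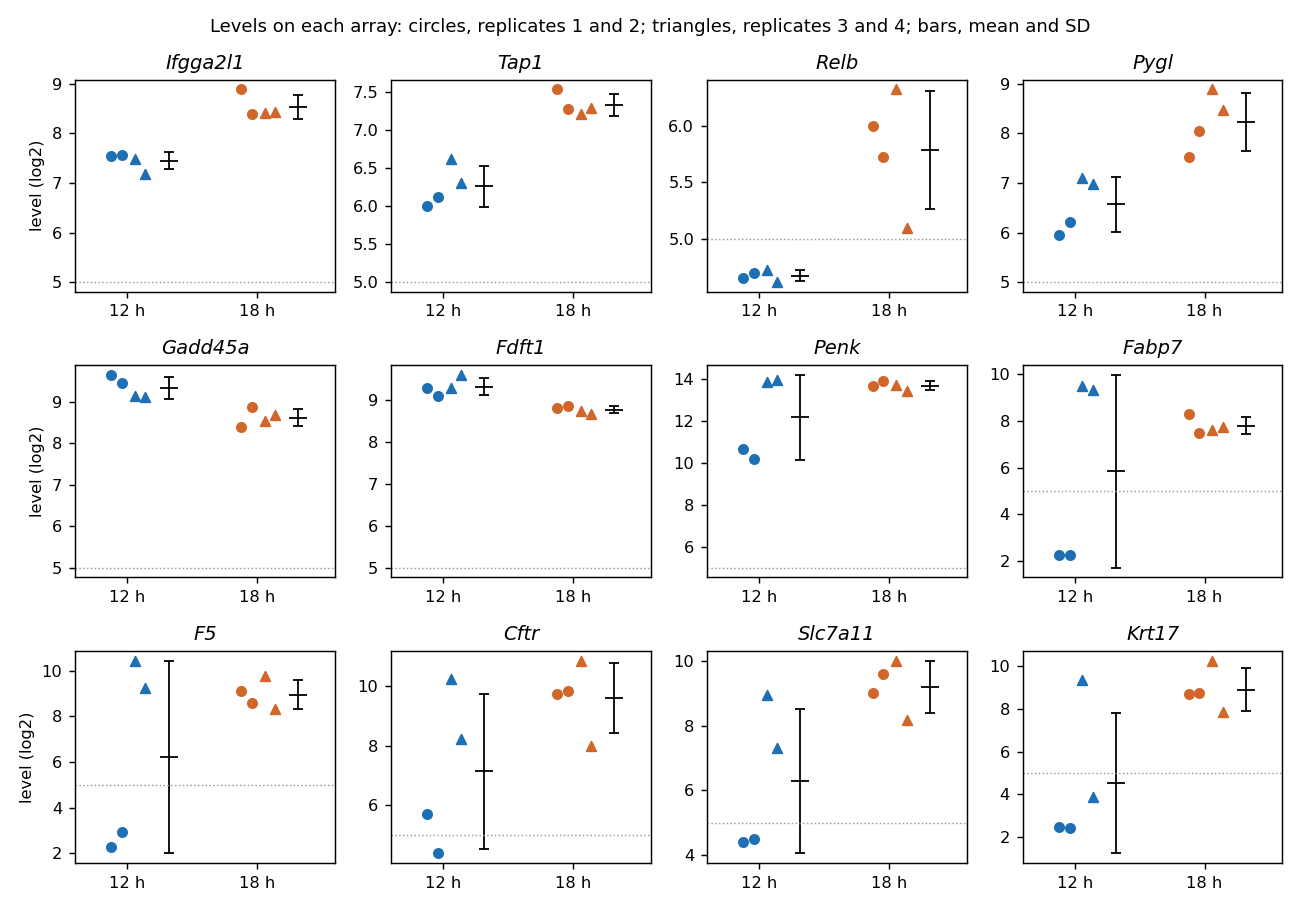
Level (log2, vertical axis) of 12 genes on each of the 8 arrays at 12 h (blue) and 18 h (orange), with circles for replicates 1 and 2 and triangles for replicates 3 and 4. Black bars are group means ± SD (n = 4), the dotted line is the minimum level of 5, and vertical scales differ between panels. The first 6 genes differ the same way in both pairs, and the 6 after them, from Penk to Krt17, have low circles at 12 h.

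Immediate early genes, which respond within minutes to growth and stress signals, were higher in 15 of 19 cases and in both pairs in 14. Their median was 0.47 (0.54 and 0.28). At an unadjusted p under 0.05, 5 were higher and 1 lower, against 2.24% and 2.20% of all genes. Atf3, a stress-induced repressor, stood at 2.45, 2.28, 6.90 and 2.45 at 12 h and at 5.34, 6.42, 6.81 and 5.57 at 18 h. It was near background on 3 of the 4 arrays at 12 h and above 5 on all 4 at 18 h. The difference was 2.52 ± 1.03 (limma adjusted p = 1), of uncertain size, and 12 h replicate 3 lay above every 18 h array. Jun had 9.84, 9.62, 10.82 and 9.93, then 11.05, 11.14, 10.88 and 10.30, with 12 h replicate 3 again inside the 18 h range (difference 0.79 ± 0.29). Fos, 6.92, 6.03, 7.18 and 5.51 and then 7.12, 6.48, 7.52 and 8.23, differed by 0.93 ± 0.47, mostly in the second pair (0.32 and 1.53). Klf6 differed by 1.01 ± 0.34, and the mitogen-induced Ier5 and Ier2 by 0.81 ± 0.26 and 0.68 ± 0.27. Egr2 was the exception that lay lower on every 18 h array, 11.32 to 11.61 against 11.67 to 11.78 (-0.29 ± 0.10). On the 12 h arrays the list's mean was 8.09, 7.82, 8.55 and 7.40, and on the 18 h arrays it was 8.49, 8.76, 8.48 and 8.25, so the groups overlapped through 12 h replicate 3. Without both 12 h arrays that stood apart, 17 of 19 of these genes were higher (median 0.50), as were 15 of 17 of the NFKB list (median 0.43) and 11 of 17 of the antigen presentation list (median 0.35). In the same fit the macrophage markers had a median of 0.99 and the fibroblast markers of 0.54, and their part in these values was not tested.

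ERK output genes, the transcripts that ERK keeps up, were split 5 higher and 4 lower around a median of 0.06 (0.21 and -0.09). Dusp5, a nuclear ERK phosphatase, had 7.19, 8.01, 7.19 and 7.83 at 12 h and 8.65, 8.97, 8.81 and 7.97 at 18 h. The difference was 1.04 ± 0.28 (1.21 and 0.88; limma adjusted p = 0.98), with 1 array of each time inside the other's range. Dusp6, the cytoplasmic ERK phosphatase, stood at 0.06 ± 0.21 (0.41 and -0.29). Etv4, an ETS factor downstream of ERK, was lower by -0.84 ± 0.53, -0.91 in the first pair and -0.78 in the second. Its 12 h levels were 7.2, 8.06, 8.62 and 9.21 and its 18 h levels 6.73, 6.72, 8.47 and 7.81, so that within each pair both 18 h arrays were below both 12 h arrays. Etv1 stood at -0.29 ± 0.21 and Spry4, a feedback inhibitor, at -0.05 ± 0.12. Etv5 was below the minimum level and was not tested.

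Apoptosis genes differed in both directions. Of 12 caspase and apoptosome genes 7 were higher and 5 lower (median 0.08), with 0 at an unadjusted p under 0.05, and for 10 of them the 95% interval excluded a doubling or halving. Casp9 and Casp8, initiator caspases, stood at -0.09 ± 0.13 and -0.06 ± 0.18, and Casp6, an executioner, at 0.12 ± 0.19. Casp4, an inflammatory caspase, was the widest at 1.21 ± 0.69 (2.26, of uncertain size, and 0.16). Of 7 pro-apoptotic Bcl2 genes, Bcl2l11 (Bim) stood at 0.50 ± 0.25 (0.36 and 0.63), Bok at 0.27 ± 0.13 and Bad at -0.10 ± 0.11. For Bcl2l11 the 12 h arrays had 6.80 to 7.54 and the 18 h arrays 7.13 to 8.18, with overlap. Among 11 survival genes the median was 0.03, with Mcl1 at 0.29 ± 0.22 and Xiap, the caspase inhibitor, at -0.39 ± 0.37. The interval excluded a doubling or halving for 4 of the 7 pro-apoptotic genes and 8 of the 11 survival genes. Death receptor and adaptor genes were higher in 9 of 11 cases with a median of 0.31 (0.76 and 0.14). At an unadjusted p under 0.05, 2 were higher, against 2.24% of all genes in that direction. Of the 11 intervals, 5 lay inside a doubling or halving. Tnfsf10, the death ligand TRAIL, stood at 6.33, 6.6, 6.33 and 7.06 and then at 7.56, 6.97, 6.94 and 7.38, a difference of 0.63 ± 0.21, and 12 h replicate 4 alone reached the 18 h range. Tnfrsf21 and Tnfrsf12a differed by 1.96 and 1.98 in the first pair but by 0.33 and 0.60 in the second.

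p53 targets and growth arrest genes leaned lower, with 10 of 15 below 0 and a median of -0.21 (-0.38 and -0.06). Gadd45a, a stress-induced inhibitor of cell cycle progression, had 9.65, 9.46, 9.13 and 9.12 at 12 h and 8.4, 8.87, 8.54 and 8.68 at 18 h. All 4 arrays of 18 h lay below all of 12 h, and the difference was -0.72 ± 0.16 (-0.92 and -0.52; limma adjusted p = 0.98). Sesn1 stood at -0.81 ± 0.33 and Gadd45g at -0.38 ± 0.19. Cdkn1a, the cell cycle inhibitor p21, went the other way at 0.69 ± 0.35, with 1.36 in the first pair and 0.01 in the second. The mean of the list was 7.71 to 7.82 on the 12 h arrays and 7.51 to 7.67 on the 18 h arrays, without overlap. Without both 12 h arrays that stood apart, 9 of 15 were lower and the median was -0.12. Cell cycle genes were few: only 4 of 24 G2 and M phase genes on the array reached the minimum level, and all 4 were lower. Cdk1, the mitotic kinase, stood at -0.94 ± 0.34 (-0.16 and -1.71), of uncertain size as the 18 h levels of 4.91 and 4.63 are under 5.

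Sterol synthesis genes stood lower at 18 h in most cases. Of 20 tested genes 18 were lower at 18 h and 13 were lower in both pairs, against 49.0% and 22.3% of all genes. An unadjusted p under 0.05 was reached by 8 of 20, all lower, against 2.20% of all genes, and 5 of 20 had groups that did not overlap with 18 h lower, against 1.36%. The median was -0.32 (-0.27 and -0.39), and it was -0.37 with 18 of 20 lower when both 12 h arrays that stood apart were left out. On the 12 h arrays the list's mean level was 8.87, 8.70, 8.90 and 9.02, and on the 18 h arrays 8.42, 8.63, 8.63 and 8.58, so that every 18 h array lay below every 12 h array. None of the 20 genes was called by limma (lowest adjusted p 0.98).

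Along the pathway, at its early steps, Mvk and Mvd, which make the isoprene unit, stood at -0.31 ± 0.19 and -0.29 ± 0.16, Idi1, the isomerase, at -0.53 ± 0.18 and Fdps, which joins isoprenes, at -0.66 ± 0.19. Fdft1, squalene synthase and the first step committed to sterols, had 9.28, 9.09, 9.29 and 9.59 at 12 h and 8.81, 8.84, 8.73 and 8.65 at 18 h. The groups did not overlap, and the difference was -0.55 ± 0.13 (-0.36 and -0.75; limma adjusted p = 0.98). A further probe set of Fdft1 gave -0.54 ± 0.13. Sqle, the squalene epoxidase, stood at -0.32 ± 0.12, but Lss, the cyclase after it, at 0.04 ± 0.14.

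Of the later steps, Msmo1, a C4-methyl sterol oxidase, had 11.08, 10.87, 10.72 and 10.95 and then 10.02, 10.52, 10.41 and 10.39. It was lower on every 18 h array, by -0.57 ± 0.14 (-0.70 and -0.43; limma adjusted p = 0.98). Nsdhl, which acts with it, had 8.65, 8.22, 8.56 and 8.79 and then 7.87, 8.11, 8.11 and 8.15, with no overlap and a difference of -0.49 ± 0.14. Sc5d differed by -0.47 ± 0.15, also without overlap, Cyp51 by -0.35 ± 0.18 and Ebp by -0.07 ± 0.16. Insig1, which retains SREBP in the endoplasmic reticulum and is itself an SREBP target, had 10.19 to 10.68 at 12 h and 9.49 to 10.14 at 18 h (-0.54 ± 0.17). The regulators Srebf2 and Srebf1 stood at -0.21 ± 0.20 and -0.18 ± 0.12. For Idi1, whose promoter is printed above, the probe set that stands for it had overlapping groups and was uneven in the pairs (-0.89 and -0.16). A second, dimmer probe set gave -0.73 ± 0.18 (-1.11 and -0.36) with groups apart. Fatty acid synthesis genes, the neighbouring SREBP programme, had a median of -0.08, with 12 of 17 lower and Fasn at -0.39 ± 0.24 (-0.78 and -0.01).

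**Figure D2:**
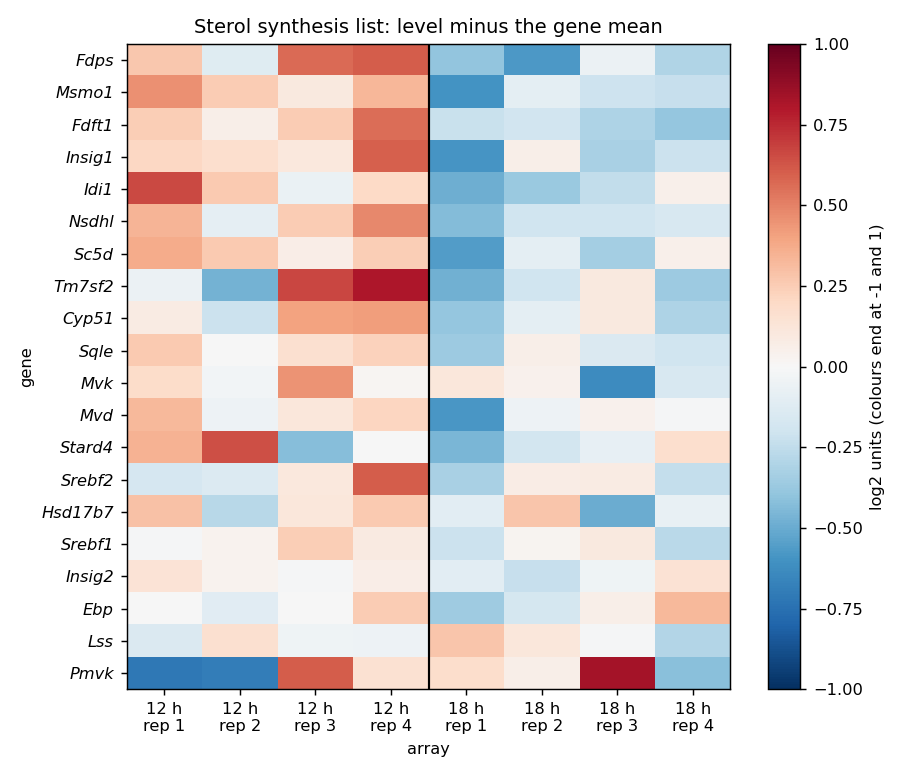
Level of each of the 20 tested sterol synthesis genes on each of the 8 arrays minus that gene's mean over the 8 arrays, in log2 units (red higher, blue lower), with genes ordered by their difference. The upper rows are red on the 4 arrays of 12 h left of the line and blue on the 4 arrays of 18 h right of it, and Pmvk at the foot, at 0.32 ± 0.37, goes against the rest.

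Other lists of metabolism and stress moved less or differed between the pairs. Unfolded protein response genes were lower in 19 of 23 cases (median of all 23 -0.09), with Hspa5, the main chaperone of the endoplasmic reticulum, at -0.11 ± 0.12. For 22 of the 23 the 95% interval excluded a doubling or halving. Without both 12 h arrays that stood apart the list's median was -0.18. In that fit 6 of 23 were lower at an unadjusted p under 0.05, against 313 of all 8179 genes. ATF4 amino acid stress genes were higher in 21 of 26 cases with a median of 0.23, which was 0.44 in the first pair and 0.01 in the second. Slc7a11, the cystine importer, stood at 4.41, 4.49, 8.96 and 7.30 at 12 h and at 9.01, 9.58, 10.01 and 8.18 at 18 h. Its difference was 2.90 ± 1.03 (4.84, of uncertain size, and 0.96). Without both low 12 h arrays the ATF4 list had 11 of 26 higher and a median of -0.05. Ribosome biogenesis genes were higher in 18 of 22 cases and in both pairs in 14 (median 0.14), with the snoRNP protein gene Nop56 at 0.37 ± 0.14. Proteasome subunits had a median of 0.05 and oxidative phosphorylation genes of -0.05, and all 31 and 25 of 26 of them had intervals inside a doubling or halving. The 9 reference genes had a median of 0.00.

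Txnrd1, a thioredoxin reductase of the NRF2 programme, had 8.69, 8.84, 8.75 and 8.61 at 12 h and 9.48, 9.46, 9.42 and 8.83 at 18 h (0.58 ± 0.16; 0.70 and 0.45). Its list of 28 had a median of 0.04. Pygl, liver-type glycogen phosphorylase, had 5.96, 6.22, 7.11 and 6.98 and then 7.52, 8.05, 8.89 and 8.47. Every 18 h array was higher, and within each pair the distance was alike, 1.69 and 1.64. Its difference of 1.67 ± 0.36 had a limma adjusted p of 0.98, and 0.128 with the pair block, the lowest of that fit, in a range of 0.0855 to 1 over all settings. Gabarapl1, an autophagosome gene, was higher on all 18 h arrays by 0.31 ± 0.09, and Nkd1, a Wnt inhibitor, lower on all by -0.51 ± 0.14 (-0.78 and -0.24).

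Clock genes were counted because tissue taken 6 h apart can differ by hour of the day. Of 18, 10 were higher and 8 lower (median 0.08), and 0 had an unadjusted p under 0.05. Per1 and Per2 stood at 0.23 ± 0.42 (0.04 and 0.42) and 0.29 ± 0.23 (-0.06 and 0.63). Dbp and Bmal1 stood at -0.27 ± 0.27 (-0.60 and 0.05) and -0.11 ± 0.15 (0.16 and -0.38), and Nr1d1 was below the minimum level.

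**Figure D3:**
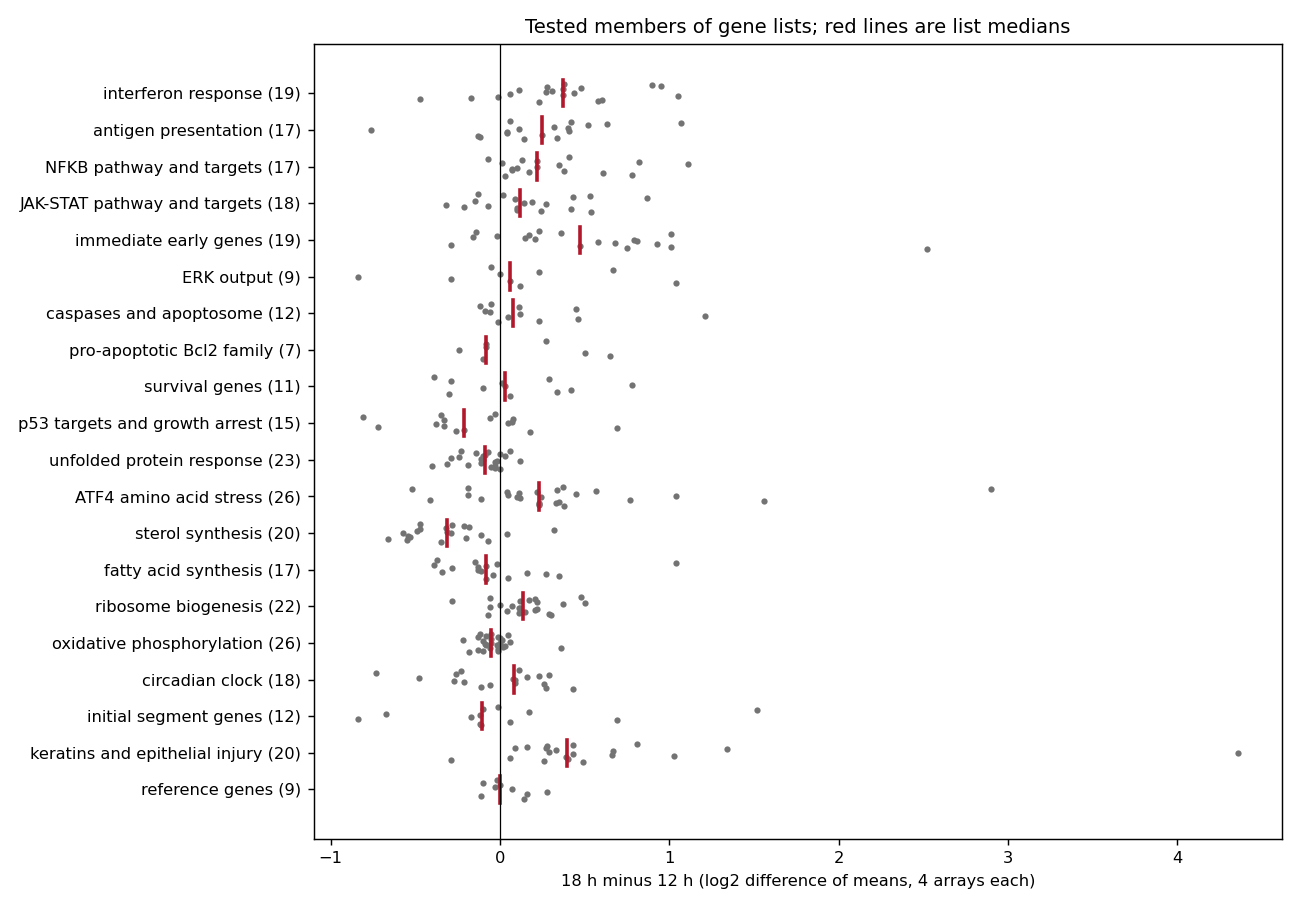
Difference between 18 h and 12 h (log2, horizontal axis) of each tested member of 20 gene lists, with the number of members in brackets and a red line at the list's median. Among these 20, sterol synthesis lies furthest to the left of 0 at -0.32 and immediate early genes furthest to the right at 0.47. The reference genes sit around 0. Of the lists not drawn, the 4 tested G2 and M phase genes had a median of -0.36.

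Within replicates 1 and 2 alone the picture differed. There limma called 62 probe sets (0.478%), 52 higher (0.401%) and 10 lower (0.0770%) at 18 h, of 49 named genes, with 2553 at an unadjusted p under 0.05 (19.7%). Within replicates 3 and 4 alone it called 0, with 938 at an unadjusted p under 0.05 (7.23%). Of the 62, 25 had the same sign in replicates 3 and 4, and 0 had the same sign with an unadjusted p under 0.05. The 52 called higher had a median of 3.02 in the first pair and -0.13 in the second, and the 10 called lower had medians of -1.77 and 0.32. The differences of both pairs had the same sign in 47.3% of tested probe sets, and across them they had a Pearson r of -0.08 and a Spearman rho of -0.08; this is a description across probe sets, which are not independent. Each within-pair fit rests on 2 arrays per time.

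Tested directly, the difference between 18 h and 12 h was unequal between the pairs for 4 probe sets (0.0308%; 1871, 14.4%, at an unadjusted p under 0.05), those of Fabp7, Ninl, Penk and Ggact. The count was 0 without any 1 of the 12 h arrays or without 18 h replicate 4. Leaving out replicate 1, 2 or 3 of 18 h gave 7, 1 and 19, respectively. Penk encodes proenkephalin, an opioid precursor that is abundant in the initial segment. It stood at 10.69, 10.19, 13.88 and 13.98 at 12 h and at 13.70, 13.93, 13.73 and 13.46 at 18 h. The first pair of 12 h was low and the other 6 arrays lay between 13.46 and 13.98, so the difference was 3.38 in one pair and -0.33 in the other (limma adjusted p of the inequality 0.0263). Fabp7, a fatty acid binding protein, had 2.27, 2.26, 9.49 and 9.34 and then 8.31, 7.49, 7.61 and 7.72. The first pair of 12 h was at background, so its difference there, 5.63, is of uncertain size. In the second pair the difference was -1.75 (limma adjusted p of the inequality 0.00611). Ninl, a ninein-like centrosome protein, had 4.82, 4.82, 8.30 and 8.38 and then 7.70 to 8.24 (adjusted p = 0.0176 by limma). The probe set of Ggact ran the other way, -4.06 and 0.83, with 18 h replicates 1 and 2 under 5 at 3.36 and 3.07. A brighter probe set of the same gene gave 0.02 and 0.40.

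The other genes that were low on both of these 12 h arrays were of several kinds, picked here after their values were seen. F5, coagulation factor V, had 2.26, 2.92, 10.44 and 9.26 at 12 h and 8.34 to 9.76 at 18 h. Il1rl1, an interleukin receptor, had 3.11, 3.11, 10.24 and 8.02 and then 8.0 to 11.66. Cftr, the chloride channel of the luminal membrane, had 5.71, 4.38, 10.24 and 8.22 and then 7.99 to 10.87. Its difference was 2.47 ± 1.24 (4.74 and 0.20), of uncertain size as the 12 h level of 4.38 is under 5. Ggh, a folate hydrolase, had 7.01, 7.35, 12.66 and 11.87 and then 11.55 to 12.44. On the 4 arrays of 6 h these genes had means of 10.24 (F5), 8.03 (Il1rl1), 9.96 (Cftr), 12.54 (Ggh), 13.98 (Penk) and 10.31 (Fabp7), nearer to the other 6 arrays than to the low pair. Slc7a11 had a 6 h mean of 6.17, between the low pair (4.41 and 4.49) and the other 6 arrays (7.30 to 10.01). Ppp1r1a, a phosphatase inhibitor, had 2.67 and 2.25 in the low pair and 4.85 to 5.53 on the other 6 arrays. Its 6 h mean of 3.5 and its low pair are under 5, so they were not told apart. Krt17, a keratin of stressed epithelia, was unlike the genes above. It had 2.49, 2.41, 9.36 and 3.88 at 12 h and 8.69, 8.77, 10.27 and 7.86 at 18 h, with a mean of 2.41 at 6 h. Only 12 h replicate 3 reached the 18 h range. The difference was 4.36 ± 1.49 (6.28 and 2.44, limma adjusted p = 1), the largest of the comparison. Its size is uncertain, as the other 12 h levels are under 5. Keratin and epithelial injury genes were higher in 19 of 20 cases, with a median of 0.39 that was 0.67 in the first pair and 0.10 in the second. Without both low 12 h arrays 14 of 20 were higher, with a median of 0.25.

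**Figure D4:**
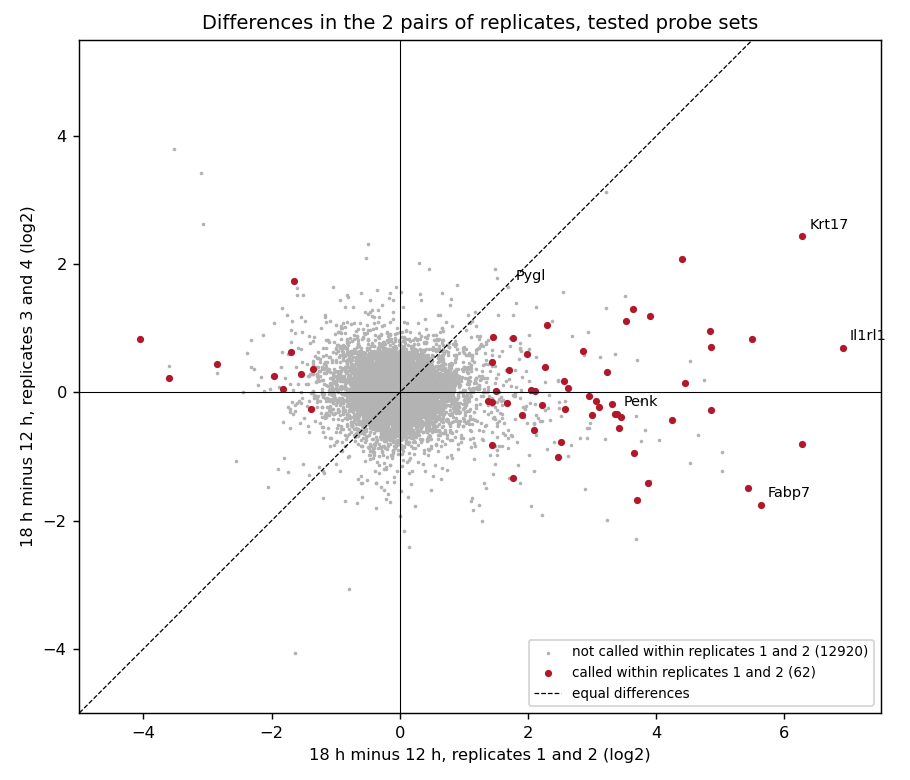
Difference between 18 h and 12 h (log2) of each of 12982 tested probe sets within replicates 1 and 2 (horizontal) and within replicates 3 and 4 (vertical), with the 62 called within replicates 1 and 2 in red and equal differences on the dashed line. Most red points lie far to the right near 0 on the vertical axis, while Pygl lies on the dashed line.

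Of 12 initial segment genes, Penk included, 4 were higher and 8 lower, with a median of -0.11 (0.02 and -0.29) and 8 intervals inside a doubling or halving. Without both low 12 h arrays the median was -0.31. In that fit 4 of 12 were lower at an unadjusted p under 0.05, against 313 of all 8179 genes. Ggt1, a gamma-glutamyl transferase, stood at -0.17 ± 0.19 (0.04 and -0.38) with a 95% interval of -0.60 to 0.27. Ros1, the receptor kinase needed for the segment to form, stood at -0.01 ± 0.32. Aqp9, a water and glycerol channel, had 10.77, 11.08, 11.59 and 11.58 and then 10.33, 10.42, 10.84 and 10.18. It was lower within each pair, by -0.54 and -1.07, and by -0.81 ± 0.23 in all (limma adjusted p = 1), with 1 array of each time inside the other's range. B3galt5, a galactosyltransferase, had 6.67, 7.78, 5.76 and 7.02 and then 5.42, 4.94, 5.81 and 4.04, a difference of -1.76 ± 0.50 (-2.05 and -1.47). Its size is uncertain, as the 18 h levels of 4.94 and 4.04 are under 5. Rasl10a, a small GTPase gene, stood at -0.76 ± 0.33 (-0.83 and -0.68), and Mmp7, an epithelial protease, at 1.98 ± 1.04 (3.36 and 0.60). Cst12, a cystatin of the more distal caput, had 10.29, 9.14, 13.29 and 12.83 and then 12.16 to 12.86, low again on the same 12 h arrays.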

How the data were processed

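Tissue RNA was column-purified, treated with DNase and labelled with biotin for Affymetrix rat arrays, per the labels' protocols. The deposited table holds 1 log2 value per probe set and array, made with GCRMA (background correction by probe sequence, quantile normalization, summary), per the submitters' processing notes (version unknown here). The values lay between 2.22 and 15.09, and no scanner files were used here. GCRMA brings the arrays' distributions together, so a shift of most genes would not show. The number of arrays limits the precision.

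A probe set was tested if it reached 5 in at least 4 of the 8 arrays. Of 31042 probe sets, the platform annotation of 2016 gave 20826 a single symbol, 436 several and 9780 none, with 20758 Entrez IDs found in a GRCr8 gene table and 68 not. Of several probe sets for 1 gene, that of highest mean stood for it. Differences were fitted in R 4.3.3 with limma 3.58.1 (lmFit, eBayes) over the 8 arrays without a block, and adjusted by Benjamini-Hochberg over all tested probe sets. The code was tested on simulated data. P-values measure the spread between these arrays.

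As a check of pairing, deviations from the group means of same-numbered arrays correlated at 0.29 to 0.56, so both blocks are given beside the counts, but only replicate 3 matched its own number best. Members and lists were chosen with earlier results of these data known. The genes named by rule were, for each list, the member with the smallest p, and a set of 19 genes always reported, of which 3 were not tested. Several of the smallest-p members are not described singly here. The rule's places for called genes stayed empty. The other genes and list members named were picked after their values were seen. Alternatives were other priors, minimum levels, scalings, blocks, array weights (statmod 1.5.0), averaged probe sets, stricter calls, all 12 ligated arrays and arrays left out; leaving out both 12 h replicates 1 and 2 was added after the data were seen.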

Additional observations from a re-analysis of the deposited data

Results flagged for a closer look

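The difference between 18 h and 12 h was unequal between the pairs of replicates, by limma's interaction test, for Fabp7 (change in replicates 3 and 4 minus that in replicates 1 and 2 of -7.38), Penk (-3.71), Ninl (-3.19) and 1 probe set of Ggact (4.88). The values behind them are in the report. In the first 3 the 12 h arrays of replicates 1 and 2 are low. In Ggact they are at 7.40 and 7.15, above all other arrays, and the 18 h arrays of replicates 1 and 2 are at 3.36 and 3.07, under 5.

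In 6 of 150 groups of 4 arrays of named genes (4.0%), 1 array lay further from the rest than Dixon's critical share of the range allows; chance gives about 1 in 20. Nags, an enzyme gene of urea cycle control, had 5.18 on 12 h replicate 3 against 7.31 to 7.47 on the rest (share 0.929). Its difference between 18 h and 12 h was -0.46 ± 0.65 (-1.70 and 0.78). Ifgga2l1 was highest on 18 h replicate 1 (0.910), Txnrd1 lowest on 18 h replicate 4 (0.921), and Nfkbia lowest on 18 h replicate 1 (0.837). Hsd11b1 was highest on 12 h replicate 2 (0.840), and the brighter probe set of Ggact on 12 h replicate 4 (0.859).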

How the results depend on the processing

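The count of 0 called probe sets held under each setting run except 2. Within replicates 1 and 2 alone limma called 62 probe sets and 8 genes of the lists. Leaving out 1 array in turn gave 0 to 1 probe sets, the 1 being a probe set with no gene symbol, without 18 h replicate 1 (-3.68 ± 0.28, adjusted p = 0.0462, against -2.86 ± 0.76 with all 8 arrays), and 0 list genes. The lowest adjusted p over the settings ran from 0.00521 to 1. The replicate block called 0 and changed no call. The 4 probe sets unequal between the pairs became 27 with no minimum level, 9 with a minimum of 7, 12 with arrays centred, 10 after cyclic loess and 1 at an adjusted p under 0.01 (Fabp7), and 0 to 19 with 1 array left out; the cause was not tested. Rescaling moved the median difference of all probe sets by less than 0.01.

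Of 1781 alternative values of 75 named genes, 1732 kept direction and side of the threshold, 7 passed it (all within replicates 1 and 2) and 42 changed sign. With array weights the values that changed sign were those of Bmal1 (0.03), Ccl2 (-0.31) and Nfkbia (-0.02), and with averaged probe sets that of Ggact (-0.70). Within replicates 1 and 2 they were Actg2 (-0.03), Bmal1 (0.16), Ccl2 (-0.25), Cd68 (-0.17), Ggt1 (0.04), Nfkbia (-0.11) and Per2 (-0.06). Within replicates 3 and 4 they were A2m (-0.06), Dbp (0.05), Dusp6 (-0.29), Fabp7 (-1.75), Fgg (-0.06), Hbb (0.04), Nags (0.78), Ninl (-0.13) and Penk (-0.33). Without both 12 h replicates 1 and 2 they were Col1a1 (0.11), Dbp (0.09), Dusp6 (-0.02), Fabp7 (-1.63), Hbb (0.50), Lpl (1.32), Me1 (-0.06), Nags (0.13), Ninl (-0.30), Penk (-0.23) and Per1 (-0.15). With 1 array left out, sign changes came in Ccl2 (-0.35 to 1.00), Dusp6 (-0.15 to 0.18), Fgg (-0.04 to 0.87), Hbb (-0.41 to 0.19), Lpl (-1.49 to 0.21), Nags (-1.01 to 0.01) and S100b (-0.03 to 0.73).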

Other observations

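Among markers of other cell types, 10 of the 14 tested macrophage markers were higher and 4 lower, with a median of 0.19 (-0.15 and 0.48). In both pairs 4 of the 14 were higher, and 0 had an unadjusted p under 0.05. Cd68, a lysosomal protein of macrophages, stood at 0.65 ± 0.42 (-0.17 and 1.47), of uncertain size as the 12 h levels of 4.73 and 3.98 are under 5. Cd14, a coreceptor for endotoxin, stood at 0.70 ± 0.60, the highest of the list. Kdr, the VEGF receptor of endothelium, had 7.90, 7.58, 7.69 and 7.27 at 12 h and 8.68, 8.33, 8.04 and 7.81 at 18 h, a difference of 0.60 ± 0.21 (limma adjusted p = 1), while the 5 tested endothelial markers had a median of 0.08. Basal cell markers had 6 of 8 higher and 4 of 8 higher in both pairs, with a median of 0.39 (0.79 and 0.16). Without both low 12 h arrays 5 of 8 were higher, with a median of 0.12. Itga6, an integrin of the basal surface, stood at 0.71 ± 0.26 (0.66 and 0.77) and Tp63, their defining transcription factor, at -0.14 ± 0.23.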
